A study of Bos taurus and Felis catus with 14 samples.

Results

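A small group of microRNAs is abundant in skeletal and heart muscle: mir-1 with its relative mir-206, the mir-133 family, the myosin-gene microRNAs mir-208 and mir-499, and mir-486. Every precursor of these families was taken from the microRNA loci predicted in the bovine (Bos taurus) and feline (Felis catus) genomes, by the family number in its name, with any letter, copy number or provisional ending and without names marked as antisense. This gave 20 of 1305 predicted loci, 9 of 810 in the cow and 11 of 495 in the cat. The bovine loci were predicted from 10 small RNA libraries of 3 Angus steers: 1 steer gave retina, iris, optic nerve, bone marrow, submandibular lymph node, penis (corpus cavernosum), dental pulp and oral papillae (buccal mucosa), another gave brain stem, and the third gave hoof corium. The feline loci were predicted from 4 libraries, 2 of normal haired skin and 2 of normal skeletal muscle, of 3 neutered male domestic short hair cats, all adult, of which 1 gave both tissues. No animal was treated, and the labels name muscle for the cat alone and heart for neither species. The libraries of a species were combined into 1 call set, and the deposited sets hold positions, strands and names without read numbers. From these sets alone the loci cannot be assigned to a tissue and the labelled tissues cannot be checked against their markers. The depth behind a locus is not given, and there is no replicate call set. The study lists counts of its products in a table of its own, which were not used here. By sequencing and quantitative PCR it reports fca-mir-1-1 and a further mir-133 member as more abundant in muscle than in skin of the cat. By the study's name for it, that member is the provisionally named mir-133 locus beside fca-mir-206, and not fca-mir-133-Novel2.

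A microRNA is cut from a hairpin precursor and can come from its 5′ arm (5p product) or its 3′ arm (3p product). Bases 2 to 8 from its 5′ end, the seed, choose most of its target messages, so the position of the 5′ end sets the target range. In vertebrates mir-1 and mir-206 each sit upstream of a mir-133 copy, and the pair can be made from a common transcript. The mir-1 products promote muscle differentiation, the mir-133 products are known for effects on myoblast proliferation, and mir-206 is largely a microRNA of skeletal muscle. The mir-208 and mir-499 hairpins lie in introns of myosin heavy chain genes, and mir-486 lies in the ankyrin gene ANK1 and is abundant in muscle and red blood cells.

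Because the deposited sets hold no letters, the products of mir-1, mir-133a and mir-499 are shown here by their human counterparts, as listed in the sequence column of the study's own table of human products, with the seed in capitals and T for U. No sequence is shown for mir-133b, mir-206, mir-208 and mir-486. The bovine and feline sequences were not read, so it was not checked that they are the same.
human miR-1-3p: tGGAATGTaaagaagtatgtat
human miR-1-5p (from mir-1-1): aCATACTTctttatatgcccata
human miR-133a-3p: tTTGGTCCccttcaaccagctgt
human miR-133a-5p: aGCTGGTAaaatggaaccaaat
human miR-499a-5p: tTAAGACTtgcagtgatgttt
human miR-499a-3p: aACATCACagcaagtctgtgct
In that table the 3p products of mir-1-1 and mir-1-2 were identical over their 22 bases, and both products of mir-133a-1 and mir-133a-2 were identical as well. A read of such a product cannot tell the copies apart. By the study's methods a read that aligns to several positions counts in equal fractions at each.

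All 6 families had a locus in each species. The cow had 2 loci of mir-1, 3 of mir-133 and 1 each of the other families, all with plain names. The cat had 2 of mir-1, 4 of mir-133, 1 each of mir-206, mir-208 and mir-499, and 2 of mir-486. Of the feline loci 9 had a plain name and 2, both of mir-133, had a provisional one without a letter. In both species the mir-208 locus was mir-208b.

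The genes around the bovine loci were taken, by symbol, from a RefSeq table built on a different assembly (ARS-UCD2.0), and all 9 bovine members matched a symbol there. MIR208B lies inside MYH7, the slow and cardiac myosin heavy chain, and MIR499 inside MYH7B, a related myosin gene. MIR486 lies inside ANK1, and MIR1-2 and MIR133A-2 lie inside both MIB1, a ubiquitin ligase of Notch signalling, and a long non-coding RNA gene. MIR206 and MIR133B lie together inside another long non-coding RNA gene, and MIR1-1 and MIR133A-1 inside the same uncharacterised gene. The table has 11 symbols of these families, and 2 of them had no locus in the bovine set. These are MIR208A, inside MYH6 (a myosin heavy chain of heart), and MIR133C, which overlaps MIR133A-1. Absence from the call set is no measure of expression.

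Positions are those of the deposited sets; the sources used here do not give the genome build. For the cat, A3, B1 and B2 are chromosome letters taken from locus names in the set, and other sequences keep their deposited name. On bovine chromosome 13, bta-mir-1-1 lies from 55237548 to 55237614 and bta-mir-133a-1 from 55227284 to 55227389, both on the minus strand, so mir-1-1 is upstream. The feline copies have the same order on the minus strand of chromosome A3, with fca-mir-1-1 from 1486866 to 1486967 and fca-mir-133a-1 from 1477365 to 1477430. The gap between the precursors was 10158 nt in the cow and 9435 nt in the cat, a ratio of 1.08. The study joined loci within 10 kb into clusters, and this limit falls between the gaps, so the pair is a cluster in the cat and not in the cow.

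The other mir-1 copy also lies upstream of a mir-133a copy. In the cow, bta-mir-1-2 (34841104 to 34841170) and bta-mir-133a-2 (34844425 to 34844490) lie on the plus strand of chromosome 24. In the cat, the mir-1-2 copy (44042141 to 44042207) and the mir-133a-2 copy (44039052 to 44039151) lie on the minus strand of NC_018734.2. The gap was 3254 nt in the cow and 2989 nt in the cat, a ratio of 1.09. The mir-1-1 pair was thus 3.12 times as wide as the mir-1-2 pair in the cow and 3.16 times as wide in the cat.

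The pair with mir-206 lies on the plus strand in each species. In the cow, bta-mir-206 (24308051 to 24308116) is followed by bta-mir-133b (24312336 to 24312398) on chromosome 23. In the cat, fca-mir-206 (50159491 to 50159592) is followed on chromosome B2 by a mir-133 locus with a provisional name (50163970 to 50164032). Here the cow had the smaller gap, 4219 nt against 4377 nt (ratio 0.964). This feline locus was compared with bta-mir-133b because of its place next to mir-206.

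Measured from the 5′ end of the upstream 3p product to that of the downstream 3p product, which leaves out how far each precursor was drawn, the distances were 10243 nt in the cow and 9519 nt in the cat for mir-1-1, 3318 and 3070 nt for mir-1-2, and 4283 and 4459 nt for mir-206. Neighbouring loci that carry the same mir names in both species, lie on 1 strand and have gaps above 500 nt and up to 50 kb formed 11 pairs, the mir-1 pairs among them. Their ratio of cow gap to cat gap had a median of 1, with quartiles at 0.934 and 1.08 and a range from 0.536 to 1.5. The mir-1 pairs, at 1.08 and 1.09, lay near the upper quartile, which the mir-1-1 pair itself helps set, beside the pair of mir-182 and mir-96 at 1.08.

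**Figure D1:**
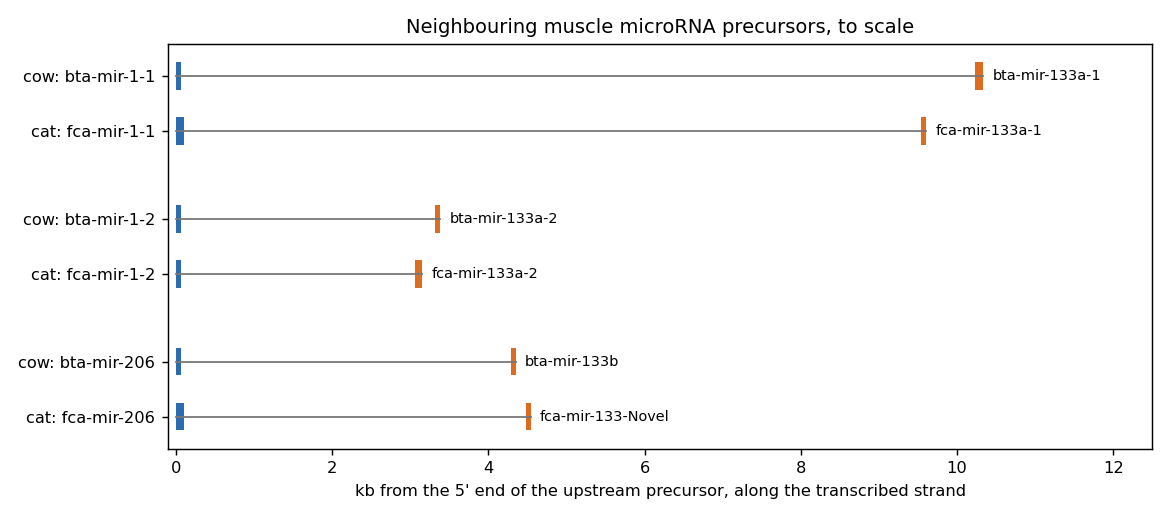
The pairs of muscle microRNA precursors drawn to scale along the transcribed strand, with distance in kb from the 5′ end of the upstream precursor on the horizontal axis (blue, upstream precursor; orange, downstream mir-133 precursor) and 1 row per pair and species. The mir-1-1 pair has a gap of 10158 nt in the cow and 9435 nt in the cat, and the other pairs have gaps of 2989 to 4377 nt.

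Counted at 10 kb on either strand, 5 of 9 bovine members (55.6%, 95% exact interval 21.2 to 86.3%) and 8 of 11 feline members (72.7%, interval 39 to 94%) lay in a cluster. Over all predicted loci the shares were 29.0% in the cow (235 of 810, interval 25.9 to 32.3%) and 33.3% in the cat (165 of 495, interval 29.2 to 37.7%). Over loci named with a mir family number they were 37.3% (183 of 491) and 46.8% (132 of 282), which the members' intervals include. The bovine interval also includes the share of all loci, 29.0%, while the feline interval lies above 33.3%. The feline count holds both strands of the mir-486 stretch and the mir-1-1 pair, whose gap of 9435 nt is just under the limit. The bovine count leaves out the antisense mir-486 name and the mir-1-1 pair. On the same strand alone, or at 5 kb, 6 of the 11 feline members lay in a cluster, and the difference between the species was not tested. The intervals in the text are Clopper-Pearson intervals and cover counting error only. They treat loci as independent, although the loci of a pair enter or leave a cluster together. The clusters that hold a member are the pairs above and the opposite-strand pair of mir-486, and no locus of another family lies in them. The members outside clusters were bta-mir-1-1, bta-mir-133a-1 and the mir-208b and mir-499 loci of both species, with fca-mir-133-Novel2.

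On bovine chromosome 10, bta-mir-208b lies from 21340628 to 21340690 on the plus strand, 498945 nt from its nearest predicted neighbour, bta-Novel289. The feline fca-mir-208b lies on NC_018728.2 from 74212687 to 74212783 on the minus strand, 557730 nt from fca-Novel174. The mir-499 loci are bta-mir-499 on chromosome 13 from 64900489 to 64900554 on the plus strand and fca-mir-499 on the minus strand of chromosome A3 between 24263957 and 24264017. Each shares its chromosome with the mir-1-1 pair of its species, and the nearest loci were 636638 nt (bta-Novel334) and 6324083 nt (fca-mir-103) away.

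Hairpins of these families mostly gave a product from each arm, with 8 of 9 loci in the cow and 10 of 11 in the cat. These are shares of 88.9% (interval 51.8 to 99.7%) and 90.9% (interval 58.7 to 99.8%). Over all loci the shares were 72.5% (587 of 810, interval 69.3 to 75.5%) and 65.7% (325 of 495, interval 61.3 to 69.8%), and over loci named with a mir family number, which are closer in kind to the members, 81.1% (398 of 491) and 80.9% (228 of 282). The members' intervals include all of these shares. The exceptions were bta-mir-206, with a 3p product of 22 nt alone, and fca-mir-133-Novel2, with a 5p product of 21 nt alone. In the cat, mir-206 had a 5p and a 3p product, both 22 nt long. The 20 members gave 38 products of 19 to 23 nt, of which 23 were 22 nt long, 7 were 21 nt, 7 were 23 nt and 1 was 19 nt.

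Product lengths were in part shared between loci of a family. The 3p product of mir-1, the arm that is known to carry the functional strand, was 22 nt in all 4 loci, as was that of mir-206 in both species. The 5p product of mir-1 was 23 nt in 3 loci and 22 nt in fca-mir-1-2. The 3p product of mir-133a was 23 nt in all 4 loci, and that of bta-mir-133b and of the feline mir-133 locus beside mir-206 was 21 nt. The 5p product of mir-133a was 22 nt in all 4 loci, against 21 nt in bta-mir-133b and 22 nt in that feline locus. For mir-208b the 5p and 3p products were 22 nt long in both species. The 5p product of mir-499 was 21 nt in both species, while its 3p product was 22 nt in the cow and 19 nt in the cat. The latter is the shortest product of the group, and products under 20 nt made up 1.59% of 820 feline products (13 products, interval 0.847 to 2.70%).

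**Figure D2:**
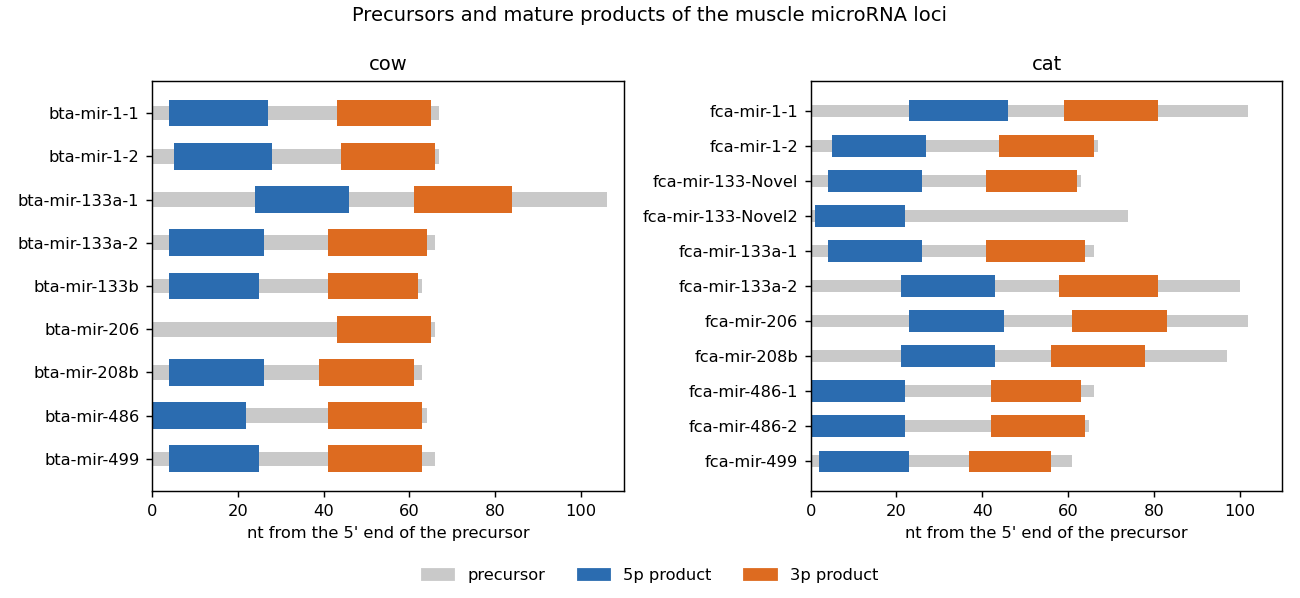
Each member's precursor (grey) with its 5p product (blue) and 3p product (orange), cow left and cat right, in nt from the 5′ end of the precursor. Precursors of 97 to 106 nt have 19 to 24 nt outside the products on each side, and the others have 0 to 5 nt, apart from the arms without a product in bta-mir-206 and fca-mir-133-Novel2.

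The distance from the 5′ end of the 5p product to the 5′ end of the 3p product does not depend on the build or on how far the precursor was drawn. Over the members it was 35 to 41 nt in the cow (median 37 nt, 8 loci) and 35 to 42 nt in the cat (median 37 nt, 10 loci), against medians of 38 nt over all loci with both products in each species. Within mir-133 it was 37 nt in all 6 loci with both products, bta-mir-133b and the feline mir-133 locus beside mir-206 included. It was 35 nt in both mir-208b loci and 38 nt in fca-mir-206. The stretch between the products was 13 nt in both mir-208b loci and 15 nt in the mir-133a loci and the feline mir-133 locus beside mir-206, against 16 nt in bta-mir-133b.

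The mir-1 hairpins were not all alike. The distance was 39 nt in bta-mir-1-1, bta-mir-1-2 and fca-mir-1-2, and 36 nt in fca-mir-1-1. The 5p product of fca-mir-1-1 was 23 nt and its 3p product 22 nt, the same lengths as in bta-mir-1-1, and the stretch between the products was 13 nt in the cat against 16 nt in the cow. In fca-mir-1-2 the 5p product was 22 nt and the stretch 17 nt, against 23 nt and 16 nt in bta-mir-1-2. For mir-499 the distance was 37 nt in the cow and 35 nt in the cat. Without the sequences it was not tested whether the hairpin is shorter or a product was placed elsewhere.

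Set beside other loci, a difference of this size was uncommon. In all, 163 loci carried the same mir name in both species, 7 of them members (mir-1-1, mir-1-2, mir-133a-1, mir-133a-2, mir-206, mir-208b and mir-499). Both products were called in both species for 135 of these, 6 of them members. The distance was equal in 106 of the 135 (78.5%, interval 70.6 to 85.1%) and in 4 of the 6 members. It differed by 2 nt or more in 12 of the 135 (8.89%), among them mir-1-1 and mir-499, and by 3 nt or more in 6 (4.44%), among them mir-1-1. The set of arms was the same in 136 of the 163 (83.4%, interval 76.8 to 88.8%) and in 6 of the 7 members, with mir-206 as the exception.

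**Figure D3:**
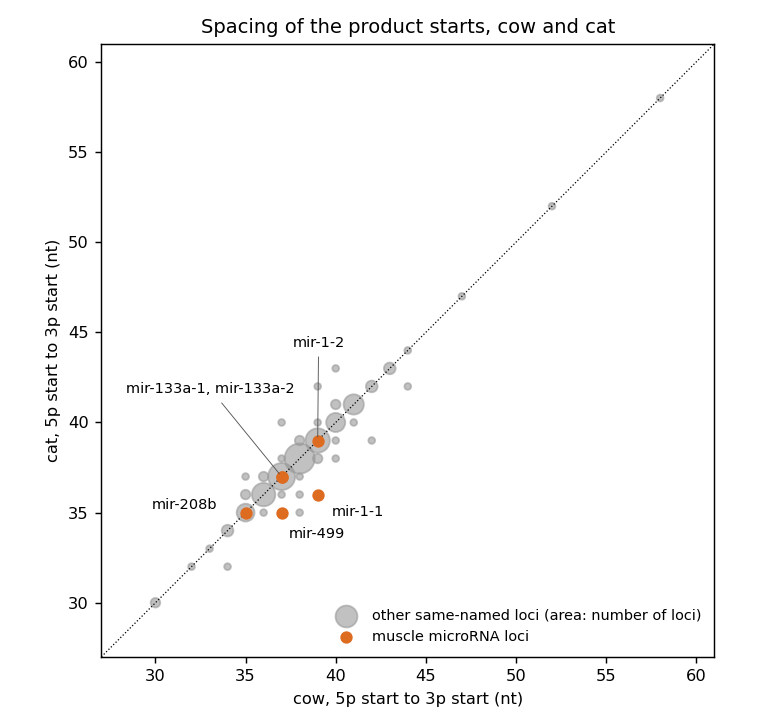
Distance from the 5p start to the 3p start in nt, cow on the horizontal and cat on the vertical axis, for loci with the same mir name and both products in both species (grey circles, area by number of loci; orange, members; dotted line, equality). Of the members, mir-1-1 (39 and 36 nt) and mir-499 (37 and 35 nt) lie below the line.

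Precursor spans differed far more than the products they hold. The members had a median precursor of 66 nt in the cow (63 to 106 nt) and 67 nt in the cat (61 to 102 nt), close to the medians of all loci, 66 and 65 nt. They fell into 15 precursors of 61 to 74 nt and 5 of 97 to 106 nt. Precursors of at least 90 nt were 1 of 9 members in the cow (11.1%, interval 0.281 to 48.2%) and 4 of 11 in the cat (36.4%, interval 10.9 to 69.2%). Over all loci the shares were 12.2% (99 of 810) and 11.1% (55 of 495). Over loci named with a mir family number they were 16.3% (80 of 491) and 12.4% (35 of 282), and the members' intervals include all of these shares. The long ones were bta-mir-133a-1 (106 nt), fca-mir-1-1 (102 nt), fca-mir-206 (102 nt), fca-mir-133a-2 (100 nt) and fca-mir-208b (97 nt). In these, 21 to 24 nt preceded the 5p product and 19 to 22 nt followed the 3p product. In the short ones, 0 to 5 nt preceded the 5p product and 1 to 5 nt followed the 3p product.

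No name was long in both species. For mir-1-1, mir-133a-2, mir-206 and mir-208b the cat precursor was longer, by 35, 34, 36 and 34 nt, while for mir-133a-1 the cow precursor was longer by 40 nt. The lengths were equal for mir-1-2, at 67 nt, and differed by 5 nt for mir-499. Thus 5 of the 7 same-named members differed by 20 nt or more, against 27 of all 163 same-named loci (16.6%, interval 11.2 to 23.2%). This measure was chosen after its values were seen, and no test was made. In the 163 loci the cow precursor was the longer by this margin in 19 (11.7%) and the cat precursor in 8 (4.91%), of which 4 are members. By the study's methods, candidate spans come either from the pairing of the main product with nearby sequence or from folding between products, and the best scoring span is kept. The deposited sets do not say which way gave a span.

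**Figure D4:**
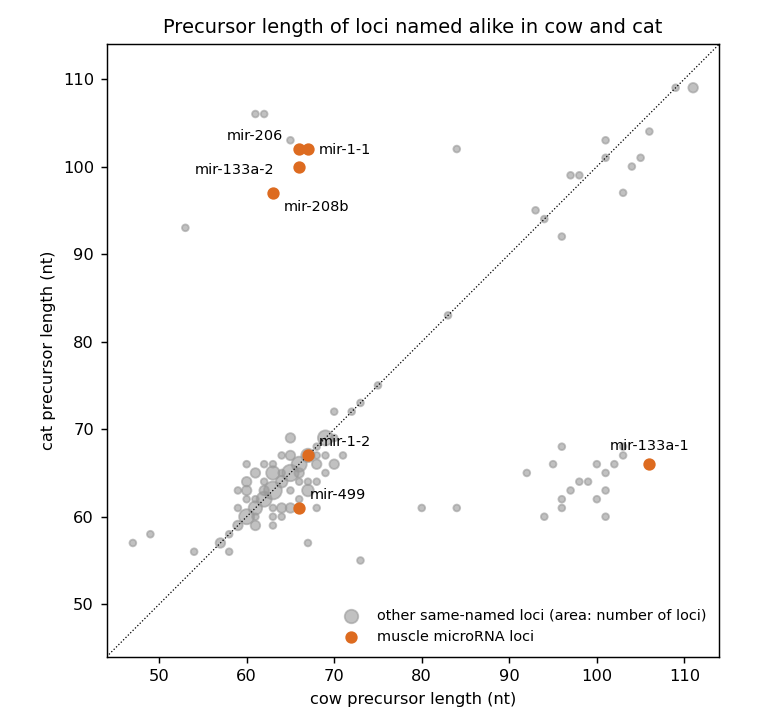
Precursor length in nt of loci with the same mir name, cow on the horizontal and cat on the vertical axis (grey circles, area by number of loci; orange, members; dotted line, equality). The members mir-1-1, mir-133a-2, mir-206 and mir-208b lie above the line at 97 to 102 nt in the cat and 63 to 67 nt in the cow, and mir-133a-1 lies below it at 106 nt in the cow and 66 nt in the cat.

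The mir-133 loci of the cat were of unlike kinds. The precursor beside fca-mir-206 was 63 nt long and held a 5p product of 22 nt from 50163974 to 50163995, with the 21 nt 3p product ending at 50164031. In bta-mir-133b the precursor was also 63 nt, with 4 nt before the 5p product and 1 nt after the 3p product, as in the feline locus. The locus fca-mir-133-Novel2 lies on NC_018734.2 from 93779785 to 93779858 on the minus strand, the sequence that also carries the mir-1-2 pair. Its precursor was 74 nt with a 5p product (93779837 to 93779857) that began 1 nt from the precursor's 5′ end and was followed by 52 nt without a product. In the other short mir-133 precursors of both species the 5p product began 4 nt from the end and was followed by 37 to 40 nt. No mir-1 or mir-206 locus lay within 10 kb of fca-mir-133-Novel2, whose nearest neighbour, fca-Novel98, was 294286 nt away.

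At mir-486 each species had a hairpin on either strand of the same stretch, under unlike names. In the cow, bta-mir-486 lies on the minus strand of chromosome 27 from 36261847 to 36261910, and the locus on the plus strand from 36261849 to 36261912 was named as antisense to it and so is not counted among the 9. In the cat, fca-mir-486-1 on the minus strand of chromosome B1 (41257997 to 41258062) and fca-mir-486-2 on the plus strand (41258001 to 41258065) both had plain names and are counted. The precursors of a pair overlapped by 62 nt in each species. The nearest other locus was 1811581 nt from bta-mir-486 (bta-Novel260) and 5245184 nt from fca-mir-486-1 (fca-Novel121). All 4 hairpins had products from both arms, and in each the 5p product began at the first base of the precursor. Because the sequences were not read, whether the same reads aligned to both strands was not tested.

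The products of the opposite strands covered each other almost whole. In the cow the 22 nt 5p product of the minus strand overlapped the 21 nt 3p product of the plus strand by 20 nt, and the 22 nt 3p product overlapped the 22 nt 5p product by 21 nt. In the cat both overlaps were 20 nt, and the products were 22 nt long except for the 3p product of the minus strand, at 21 nt. The distance between product starts was 41 nt on the minus strand and 42 nt on the plus strand in the cow, and 42 nt on both in the cat. These distances were the longest of the group, with 19 or 20 nt between the products against 13 to 17 nt in the other members with both arms. A locus on the opposite strand overlapped 50 of all 810 bovine loci (6.17%, interval 4.62 to 8.06%) and 34 of all 495 feline loci (6.87%, interval 4.80 to 9.47%), and among the members no hairpin other than those of mir-486 had such a partner.

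**Figure D5:**
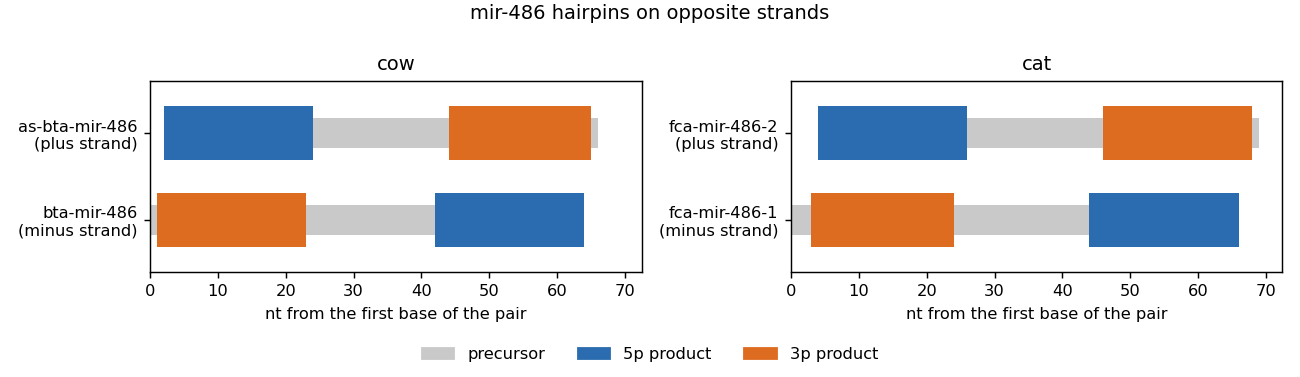
The mir-486 hairpins of the cow (left) and cat (right), 1 row per strand, in nt from the first base of the pair (grey, precursor; blue, 5p product; orange, 3p product). The precursors overlap by 62 nt in each species, and the 5p product of each strand faces the 3p product of the other with an overlap of 20 or 21 nt.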

How the data were processed

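Small RNA libraries (Illumina TruSeq) were trimmed by the authors with cutadapt 1.15, aligned with Bowtie and passed to miRWoods, which scores read stacks and candidate hairpins with random forests, on all libraries of a species together. The files deposited by the authors give each precursor and product a start and an end on the genome (1-based, ends included). The score field is blank and no read number, and so no depth, comes with a locus. No significance test was run: each species has 1 call set, and loci are not replicates.

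Members were chosen by name, and the members and lists were chosen with earlier results of these data known. Every member, its nearest predicted neighbour and any opposite-strand overlap are given by name or by position. Gaps count the nt between spans. Clusters join loci with gaps of at most 10 kb on either strand. Products were tied to precursors by the parent given in the set. Let-7 names were left out of the same-named loci. Shares carry 95% exact (Clopper-Pearson) intervals. The functions were tested on simulated loci. Alternatives varied the cluster distance, strand, eligible neighbours, measure of distance, tie of product to precursor, names counted, length statistic and matching of names. Python 3.11.15, numpy 2.4.6, scipy 1.17.1 and matplotlib 3.10.9 were used.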

Additional observations from a re-analysis of the deposited data

How the results depend on the processing

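Of 35 alternative values for 16 results, 33 lay within 1.5 times the reported value. Some of these could hardly move, such as gaps of several kb measured from other ends of the same hairpins. The share that stayed thus says little about how stable the results are. The 2 that moved were the cluster counts at 1 kb. With a cluster distance of 1 kb, only mir-486 loci stayed in a cluster, 1 member in the cow and 2 in the cat. At 5 kb the counts were 5 and 6, and at 50 kb they were 7 and 8, since the bovine mir-1-1 pair then joins. On the same strand alone they were 4 and 6. The shares over all loci at these other settings are not given here, so these counts cannot be set against all loci. Counting antisense names gave 10 bovine members and 11 feline ones, and leaving out provisional names gave 9 and 9. The mean precursor was 69.8 nt in the cow and 78.5 nt in the cat. Of the 3 families with a single locus in each species, 2 had the same arms. With length differences of 10 or 30 nt as the limit, chosen after the data were seen, the count of same-named members stayed at 5. No paired analysis was possible because no result comes from a test and the call sets hold no samples. For the same reason no library could be left out. Product ends and uncalled arms depend on depth, which is unknown here.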
